A study of Mus musculus with 20 samples.

Results

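The habenula is a small paired nucleus of the dorsal diencephalon, and Pou4f1, a POU-domain transcription factor also called Brn3a, marks most of its developing neurons. Compared here were wells that held Pou4f1 transcripts at embryonic day 13 (E13) and embryonic day 15 (E15): 603 wells of the 4811 that passed the quality limits in the whole series. A well was kept with at least 1000 counts outside spike-in and mitochondrial rows, at least 500 genes and at most 20% mitochondrial counts, and it was a member with a Pou4f1 value of at least 1. By this rule 109 and 70 wells were members on E13 plates 1 and 2, and 152 and 272 on E15 plates 1 and 2. The counts of the members were summed per plate, so each stage rested on 2 plates.

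Single cells of mouse habenula had been placed in plates of 384 wells and read with Cel-seq2, which counts the poly(A) end of each transcript with a unique molecular identifier (UMI). Both stages came from the Brn3a-tauLacZ line, in which the lacZ reporter sits at the Brn3a locus, and the tissue was habenula in both. No treatment was named. The genotype at the reporter locus, the sex, the number of embryos behind a plate and any gate of a cell sort were not named by the sources used here. Nothing states that the plates of a stage came from separate animals, so p-values measure the spread between plates, which may be technical. Other plates of the line (E11, E18, P4, P7 and adult, 2 each) entered the estimate of that spread and the stage courses. They also entered the choice of genes tested and the scaling. E12, with 1 plate, entered only the courses.

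As background, newborn neurons leave the cell cycle next to the ventricle, pass through a stage of proneural basic helix-loop-helix (bHLH) factors, and then send axons and build ion channels and synapses. In the habenula the axons gather in the fasciculus retroflexus on their way to the midbrain, and the cells separate into a medial part, known for cholinergic and tachykinin neurons, and a lateral part. The let-7 microRNAs rise as tissues mature and repress messages such as Hmga2 and Lin28a.

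Sequences that belong to the called rise of the largest fold, AC162302.2, and to the gene of the lowest adjusted p, Tfap2b, are shown first. AC162302.2, a processed transcript whose count rose, spans the genes of let-7b and let-7c-2, which lie in its introns. The mature sequences, from RefSeq (GRCm38.p6), follow with the seed (bases 2 to 8) in capitals, which is the same in both.
mmu-let-7b-5p, chr15:85707325-85707346, plus strand: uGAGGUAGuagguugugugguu
mmu-let-7c-5p, chr15:85706616-85706637, plus strand: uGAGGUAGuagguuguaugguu
Mature microRNAs carry no poly(A) tail and were not measured. The 250 bases before the RefSeq start of Tfap2b, a start that lies inside the longer gene span of the GENCODE annotation given further on, are printed with the single match to the E-box CANNTG, the letters that bHLH factors read, in capitals; the AP-2 letters GCCNNNGGC, which Tfap2b protein reads, had 0 matches.
Tfap2b promoter, chr1:19211804-19212053, plus strand: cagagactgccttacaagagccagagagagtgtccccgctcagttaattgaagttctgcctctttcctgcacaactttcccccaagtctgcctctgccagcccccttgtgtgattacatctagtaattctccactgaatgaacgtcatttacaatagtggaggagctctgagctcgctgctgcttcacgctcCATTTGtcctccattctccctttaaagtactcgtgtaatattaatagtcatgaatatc
Both patterns read the same on either strand, and no overlap arose. Of 32851 promoters of this length, 66.2% held the E-box letters and 13.7% the AP-2 letters, so the E-box is the common case.

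Neuronal genes were read in the member wells. At least 5 of 10 pan-neuronal genes were detected in 97.2% and 94.3% of member wells at E13 and in 100% and 99.6% at E15, or, after thinning each well to 2000 UMIs, in 94.2% and 80.9% and then 98.6% and 98.5%. Stmn2, a tubulin regulator of neurons, measured 2583 and 1484 CPM (counts scaled to 1000000 in each plate's sum) on the E13 plates, then 1870 and 1706 at E15. The 10 genes summed to 11719 and 8197 CPM and then 10910 and 9821 CPM in member wells. In the other kept wells they summed to 7543 and 2932 and then 8386 and 8323 CPM, so neuronal genes were not particular to members. Pou4f1 itself chose the wells and is given as a description only. It measured 549 and 353 CPM on the E13 plates, then 653 and 819 at E15, with medians of 5, 3, 6 and 8 UMIs a well. Wells just inside the limit, with 1 UMI, numbered 21, 23, 25 and 20 on the 4 plates in that order, and wells just outside it, with none, numbered 44, 67, 36 and 30.

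The plates were not alike, and E13 plate 2 stood apart from the others. Over 16353 genes the Pearson correlation of log2 CPM was 0.912 between the E13 plates and 0.942 between the E15 plates. E13 plate 1 was closer to E15 plates 1 and 2 (0.937 and 0.930) than to E13 plate 2. For E13 plate 2 the values with the E15 plates were 0.896 and 0.865. The Pou4f1-positive share of kept wells was 71.2% and 51.1% at E13 and 80.9% and 90.1% at E15. At least 3 of 14 vascular genes were detected in 43 of the 70 member wells of E13 plate 2, against 3, 1 and 0 on E13 plate 1 and the E15 plates. Of these 43 wells, 14 held a single Pou4f1 UMI. On the same plate 41 of the wells without Pou4f1 also held at least 3 vascular genes. The summed vascular level of the member wells was 151 and 1442 CPM at E13 and 50.5 and 18.9 CPM at E15. Ttr, the transthyretin gene of choroid plexus, stood at 2351 CPM on E13 plate 2 and at 0.683, 8.11 and 0 CPM on the others. On E13 plate 2, 53.3% of it came from 1 well, and 26 of the 70 member wells held at least 10 Ttr counts. On E13 plate 1 and the E15 plates 0 member wells did. The results below are therefore given with all wells, and where the calls change also with wells of under 3 vascular genes, a comparison chosen after seeing the data. That left 106, 27, 151 and 272 wells, in whose sums 3 counts stand for 2.12, 8.79, 1.88 and 0.943 CPM, so that values of E13 plate 2 under 8.79 CPM cannot be told from 0 there.

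Depth differed as well. The member wells summed to 1464335 and 1090961 counts at E13 and 1603349 and 3180016 at E15, so that 3 counts stand for 2.05, 2.75, 1.87 and 0.943 CPM. Median counts a well were 12889, 13903, 9820 and 8554. Unspliced counts made up 19.3% and 18.6% of the E13 sums and 21.0% and 26.0% of the E15 sums. Of the wells dropped for under 1000 counts (230, 246, 196 and 82), Pou4f1 was present in 19, 5, 15 and 7. Well numbers recurred between plates by design, 382 of them on all 4, and 0 member wells held the same counts as another.

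**Figure D1:**
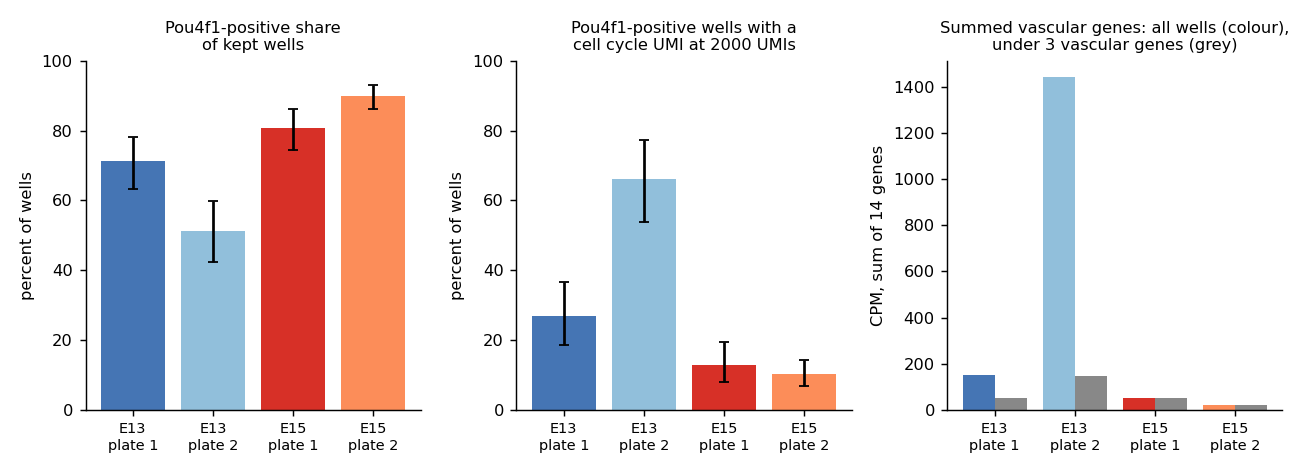
Left, the Pou4f1-positive percentage of kept wells on each plate. Middle, the percentage of member wells with a UMI of any of 24 cell cycle genes after thinning to 2000 UMIs. Right, the summed CPM of 14 vascular genes over all member wells (coloured) and over those with under 3 vascular genes (grey). These same genes chose the wells left out, so lower grey bars follow from the choice. Error bars are exact 95% binomial intervals, which cover counting error only. E13 plate 2 had the lowest Pou4f1-positive share (51.1%), the highest cell cycle share (66.2%) and the highest vascular sum (1442 CPM, 146 CPM in the grey bar).

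From E13 to E15, 18 of 16353 genes passed edgeR's quasi-likelihood test at an adjusted p under 0.05, which is 0.11% of those tested. Of these, 11 rose (0.0673%) and 7 fell (0.0428%). At an unadjusted p under 0.05 there were 1904 genes (11.6%). The genes that rose encode neuronal transcription factors (Sox6, Zfp536), membrane and signalling proteins (Lhfpl3, Csmd1, Slc24a2, Adcy2) and noncoding transcripts (AC162302.2, Gm21846, 6030443J06Rik, AC154683.1, Gm45768). Those that fell include the AP-2 factor Tfap2b, the neurotrophin receptor gene Ngfr and the growth factor antagonist Spry4. In a fit on the 4 plates alone, which leaves 2 residual degrees of freedom, 0 genes passed and 958 of 11445 had an unadjusted p under 0.05. Leaving out E13 plate 2 or E15 plate 2 gave 5 calls each, 4 of them among the 18, and leaving out E13 plate 1 or E15 plate 1 gave 191 and 50. Tfap2b and Zfp536 passed with any of the 4 plates left out. Without E13 plate 2 the others that passed were AC162302.2 and Sox6, and without E15 plate 2 Csmd1 and AC154683.1. Without E13 plate 1 the locus of Lhfpl3 (3 genes) and Gm45768 were lost, and without E15 plate 1 AC154683.1, Ngfr, Flrt1, Fstl1 and Esyt1. After thinning each well to 2000 UMIs, members were chosen anew by a Pou4f1 UMI that remained, which gave 64, 34, 103 and 198 wells. In their sums 43 of 8057 genes passed, 6 of the 18 among them (Lhfpl3, Csmd1, Sox6, AC154683.1, Gm45768 and Tfap2b). Of the 15 that were tested 9 missed the threshold, Zfp536 (log2 change 1.58, edgeR adjusted p 0.106) and Gm21846 (1.01, 0.942) among them. The parts of depth and of the changed members in this were not tested. A restriction to wells with at most 3 cell cycle genes detected, chosen after seeing the data, left 94, 21, 149 and 268 wells. Then 22 genes passed, and 9 of the 18 were among them (AC162302.2, Lhfpl3, Csmd1, Sox6, AC154683.1, Zfp536, Tfap2b, Flrt1 and Cabp1).

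**Figure D2:**
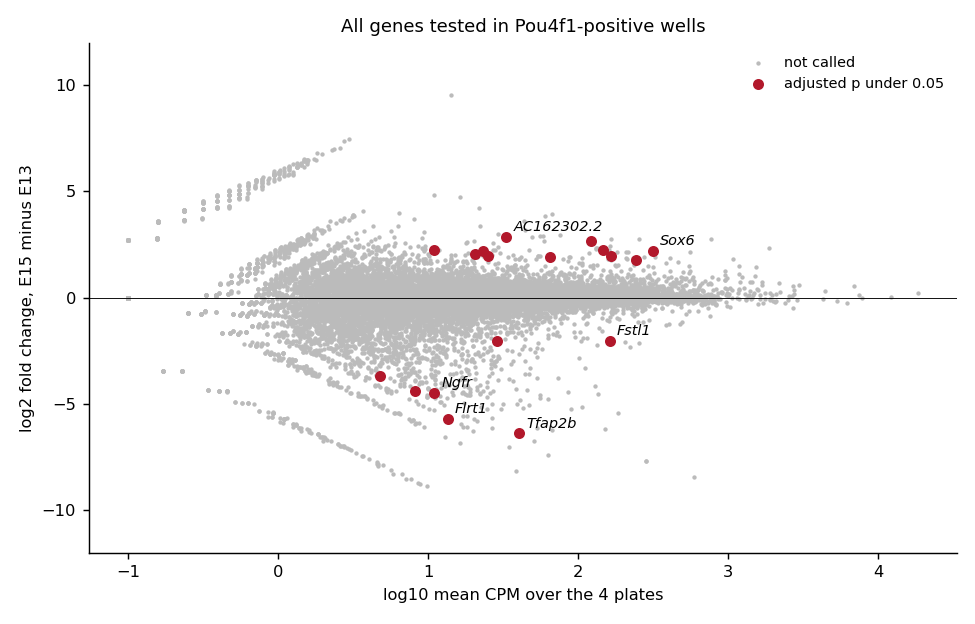
Each point is 1 of the 16353 genes tested, with the base-10 logarithm of its mean CPM over the 4 plates against its log2 fold change (E15 minus E13). Red points are the 18 genes that passed; Tfap2b lies lowest among them at -6.37 and AC162302.2 highest at 2.86.

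The gene with the lowest adjusted p was Tfap2b, a transcription factor of neural crest and midbrain neurons (chr1:19208914-19238576, plus strand). The E13 plates held 64.4 and 94.6 CPM, the E15 plates 1.25 and 0.629 CPM. The E15 values lie under the level of 3 counts. The log2 change was -6.37 ± 0.52 (SE, 2 plates a stage), with an edgeR adjusted p of 0.000446. By summed counts the ratio was 92.2, with a 95% counting interval of 35.4 to 342, from 197 counts at E13 and 4 at E15. This interval, like those of the genes below, pools the plates of a stage and covers counting error only. It leaves out the spread between wells and between plates. The transcript was in few wells even at E13: 14.7% and 12.9% of the members held it, against 1.32% and 0.735% at E15. The stage course places E13 on a descent, since the level was 666 and 662 CPM at E11 and 363 CPM at E12, and from E18 to the adult no plate exceeded 3.68 CPM. In wells with under 3 vascular genes E13 plate 2 stood lower, at 32.2 CPM, and the gene still passed (log2 change -5.87, edgeR adjusted p 0.00361). It was also the single gene that passed when only the 8 embryonic plates were fitted. Without wells with a cell cycle count, which left 1 well on E13 plate 2, it missed the threshold (-3.15 ± 1.78, edgeR adjusted p 0.768). Of the list of midbrain genes that holds Tfap2b, given below, Pax3 and, by a narrow margin, Tfap2d were lower on both E15 plates too. The part of midbrain cells in the fall of Tfap2b was not tested.

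Ngfr, which encodes the p75 neurotrophin receptor (chr11:95568818-95587735, minus strand), had a similar course. Its values were 13 and 29.3 CPM at E13 and 0.624 and 0.943 CPM at E15, after 67.7 and 66 CPM at E11, and the log2 change was -4.47 ± 0.67 (edgeR adjusted p 0.0314). The E15 plates held 1 and 3 counts, and the ratio of summed counts was 23.9, with a counting interval of 8.77 to 90.9. Without the vascular wells it passed as well, with an adjusted p by edgeR of 0.0257.

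Cabp1, which encodes a calcium-binding regulator of channels, was low at E15 and E18 and higher before and after. The E13 plates held 8.2 and 10.1 CPM, the E15 plates 0 and 0.943 CPM, where 0 counts allow up to 1.87 CPM on plate 1. At E18 it was at 2.45 and 2.43 CPM and at P4 at 67.3 and 65.5 CPM. The ratio of E13 to E15 counts was 14.4 (interval 4.34 to 74.7), the log2 change -3.69 ± 0.54 (edgeR adjusted p 0.0314), and it passed without the vascular wells too (adjusted p by edgeR 0.0368).

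The other 4 genes that fell did not pass once the vascular wells were set aside. Flrt1, a fibronectin leucine-rich transmembrane protein gene, stood at 10.9 and 42.2 CPM at E13 and 0.624 and 0.314 CPM at E15, with E13 plate 2 at 14.6 CPM without those wells (edgeR adjusted p 0.0375, then 0.0734). Flrt1 lies over Macrod1 on the other strand, and the strand setting of the counting is not given. Spry4, a feedback inhibitor of receptor tyrosine kinases, stood at 10.9 and 20.2 CPM and then 1.25 and 0.314 CPM, and E13 plate 2 had 0 counts without those wells, which allows up to 8.79 CPM (adjusted p 0.0314, then 0.305). Counts at E15 were 2 for Flrt1 and 3 for Spry4, with ratios of 58 (interval 15.4 to 490) and 23.7 (interval 7.52 to 120). Fstl1, a secreted follistatin-like protein that vessels and meninges also make, stood at 180 and 348 CPM and then 53 and 66.1 CPM, with E13 plate 2 at 135 CPM without those wells (adjusted p 0.0402, then 0.0837). Esyt1, a lipid-transfer protein of membrane contacts, stood at 45.8 and 46.8 CPM and then 13.1 and 8.81 CPM, with E13 plate 2 at 14.6 CPM without those wells (adjusted p 0.0458, then 0.213). The log2 changes with all wells and then without the vascular wells were -5.70 and -4.66 for Flrt1, -4.39 and -3.18 for Spry4, -2.02 and -1.23 for Fstl1 and -2.02 and -1.70 for Esyt1. For all 4 the level of E13 plate 2 was lower without the vascular wells, and the stages then still did not overlap for Flrt1, Fstl1 and Esyt1.

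Among the genes that rose, Sox6 and Zfp536 encode transcription factors. Sox6 (chr7:115470872-116038796, minus strand), a SoxD factor of neuronal and glial lineages, stood at 97.7 and 140 CPM at E13 and 453 and 574 CPM at E15. Both E15 plates were above both E13 plates, and the change was 2.22 ± 0.27 on the log2 scale, or 4.67-fold (edgeR adjusted p 0.0101). E15 was the highest stage of its course, since E11 stood at 64.7 and 59.5 CPM and P4 at 265 and 286 CPM. It was detected in 48.6% and 62.9% of member wells at E13 and 82.9% and 79.4% at E15, where wells were shallower. Sox6 passed without the vascular wells (adjusted p 0.00557).

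Zfp536, a zinc finger repressor of neuronal differentiation genes (chr7:37472135-37773641, minus strand), stood at 95 and 136 CPM at E13 and 382 and 361 CPM at E15. The rise was 1.80 ± 0.21 on the log2 scale, or 3.48-fold (edgeR adjusted p 0.010), and it passed without the vascular wells (0.0223). Gm45768, a long noncoding RNA gene on the same strand, lies 151 kb downstream of Zfp536 and rose too, from 28.7 and 28.4 CPM to 78 and 123 CPM. Whether its counts come from reads that run on from Zfp536 was not tested.

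Of the genes that rose, 3 share 1 locus. Lhfpl3 (chr5:22746059-23275597, plus strand), a tetraspan gene of the lipoma HMGIC fusion partner family, overlaps 6030443J06Rik and Gm21846 on the same strand, so that reads could be split between them, and the 3 are counted one by one in the totals. Gm21846 had 0 unspliced counts on the 4 plates. Lhfpl3 stood at 27.3 and 43.1 CPM at E13 and 162 and 255 CPM at E15, a change of 2.69 ± 0.44 on the log2 scale (edgeR adjusted p 0.0422). It went on to 677 and 812 CPM at P4. Of its counts, 97.5% and 85.1% at E13 and 95.8% and 92.7% at E15 were unspliced.

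AC162302.2, the transcript over let-7b and let-7c-2 shown above (chr15:85653616-85707524, plus strand), had the largest fold change among the genes that rose. Without E13 plate 1 or without E15 plate 1 it did not hold this rank. It stood at 4.1 and 13.8 CPM at E13 and 60.5 and 54.4 CPM at E15, and the change was 2.86 ± 0.41 on the log2 scale, or 7.27-fold (edgeR adjusted p 0.0314). E11 stood at 0.404 and 0.652 CPM and E18 at 132 and 81 CPM. The gene passed without the vascular wells (adjusted p 0.0223) and missed the threshold without E15 plate 2 (0.0911, log2 change 2.90). The size rested on the E13 plates, with a log2 change of 2.27 without E13 plate 1 and 3.89 without E13 plate 2, and it passed in both (edgeR adjusted p 0.0182 and 0.0223). After thinning, with members chosen anew, it missed the threshold at a log2 change of 6.54 ± 1.84 (edgeR adjusted p 0.119). Between 93.3% and 100% of its counts on the 4 plates were unspliced.

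The remaining genes that rose are 3 that encode membrane proteins and an antisense transcript. Csmd1, a large complement-control membrane protein (chr8:15892537-17535586, minus strand), stood at 65.6 and 41.3 CPM at E13 and 285 and 194 CPM at E15 (log2 change 2.24 ± 0.27, edgeR adjusted p 0.0101). Adcy2, an adenylyl cyclase, stood at 9.56 and 11.9 CPM and then 38.7 and 39.3 CPM (1.97 ± 0.29, adjusted p 0.0314). Slc24a2, a potassium-dependent sodium and calcium exchanger, stood at 10.2 and 6.42 CPM and then 26.8 and 38.4 CPM (2.05 ± 0.32, adjusted p 0.0375). Of these 3, Slc24a2 missed the threshold without the vascular wells (0.0682), at a log2 change of 2.01. Slc24a2 also missed it in wells with at most 3 cell cycle genes (1.66, edgeR adjusted p 0.133). Its direction turned (-0.14 ± 0.95, adjusted p 0.986) without wells with a cell cycle count, which left 1 well on E13 plate 2. Gm21846 missed the threshold without the vascular wells too (edgeR adjusted p 0.0637, log2 change 2.71). In wells with at most 3 cell cycle genes its log2 change was 1.37 (edgeR adjusted p 0.503). AC154683.1, antisense to Clybl, stood at 48.5 and 92.6 CPM and then 333 and 183 CPM (1.98 ± 0.32, adjusted p 0.0422), and it cannot be told from Clybl where the counting ignores strand.

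**Figure D3:**
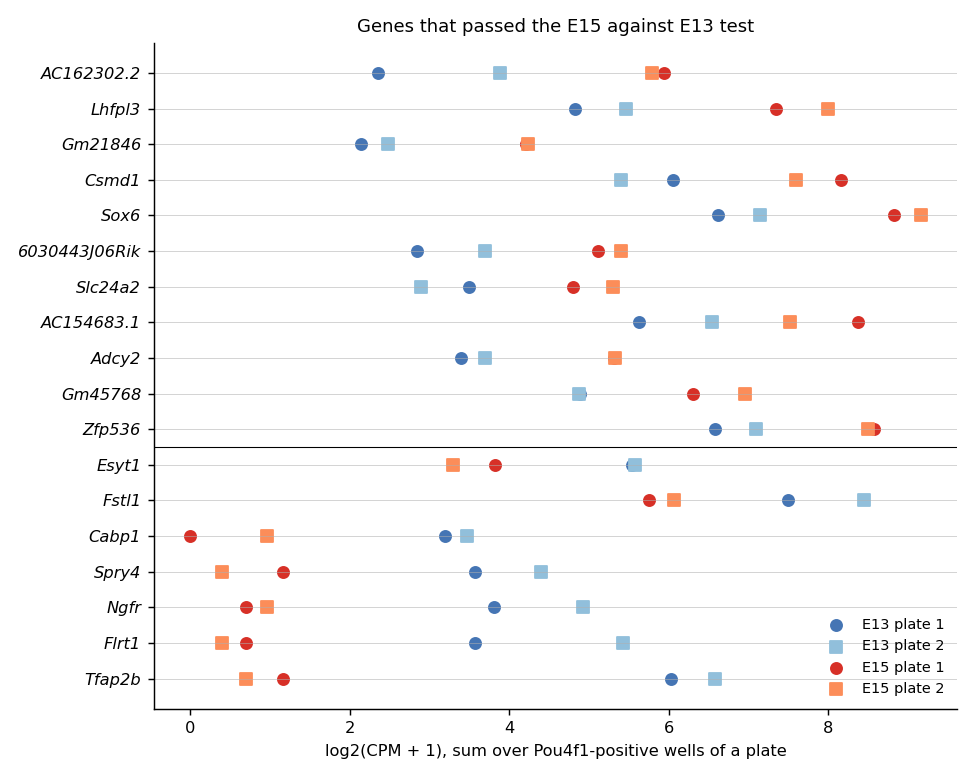
The 18 genes that passed, with log2(CPM + 1) of the summed member wells on the horizontal axis. Blue symbols are E13 plates, red and orange are E15 plates, circles are plate 1 and squares plate 2. In every row the E13 and E15 symbols are separate, as they are for 14.8% (E15 higher) and 22.4% (E15 lower) of all genes tested.

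The called genes are described here by their unspliced counts. For 9 of the 11 genes that rose, Lhfpl3 and 6030443J06Rik of 1 locus among them, more than 50% of the counts on each of the 4 plates were unspliced, and for the other 2, Gm21846 and Gm45768, none were. None of the 7 that fell exceeded 18.7% unspliced at E13. At E15 plate 2 the share was 50% for Tfap2b and 33.3% for Cabp1, each from 1 unspliced count. The share was not set beside that of other genes, so nothing particular to the called genes is read from it. Spliced counts alone gave 13 calls, 11 of them among the 18, and unspliced counts alone gave 13, of which 5 were among the 18. Sox6 and Tfap2b passed on both (edgeR adjusted p 0.0325 and 0.0347 for Sox6, 0.00167 and 0.0402 for Tfap2b). Lhfpl3, Csmd1 and AC162302.2 passed on unspliced and not on spliced counts, with log2 changes of 2.24, 2.45 and 3.02 on spliced counts. Zfp536 and AC154683.1 passed on spliced counts (edgeR adjusted p 0.0351 for both) and not on unspliced ones (0.0627 and 0.12). On unspliced counts their log2 changes were 1.54 and 1.58. The unspliced share of the whole sums was higher on the E15 plates. Its part in the result was not tested.

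With wells of under 3 vascular genes, 24 of 16080 genes passed (0.149%), 19 higher and 5 lower, and 12 of them are among the 18. The further 12 were chosen by that fit alone. Among those that were higher at E15 are Neurod2 and Neurod6, bHLH factors of maturing neurons, the LIM-only factor Lmo1, the homeobox factor Irx3 and Cadm2 and Synpr, an adhesion protein and a synaptic vesicle protein. In those wells Neurod6 had 0 counts on both E13 plates (limits of 2.12 and 8.79 CPM), and the E15 plates held 38.3 and 23.6 CPM. Cadm2 stood at 714 and 543 CPM and then 2853 and 3362 CPM (log2 change 2.38 ± 0.41, edgeR adjusted p 0.0442). The 2 further genes that were lower are Fam189a1 (123 and 191 CPM, then 29.5 and 32.7 CPM) and Kalrn, a protein of dendritic spines (386 and 420 CPM, then 147 and 150 CPM). In all member wells these 12 had adjusted p-values above 0.05, and Neurod2, at 6.83 and 22.9 and then 132 and 71.1 CPM, came closest (edgeR adjusted p 0.0524).

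Below the threshold in all wells were also 5 genes lower at E15 that the rule for names brings in. Ccnb2, a mitotic cyclin, stood at 32.8 and 44 CPM and then 3.74 and 2.52 CPM (edgeR adjusted p 0.0524). Ntn1, the midline attractant netrin 1, stood at 64.3 and 20.2 CPM and then 1.87 and 2.52 CPM (0.0595), and at 66.4 and 26.4 and then 1.88 and 2.52 CPM without the vascular wells. Abcc9 and Nid1, a pericyte channel subunit and a basement membrane protein, and the noncoding Gm14005 had their highest values on E13 plate 2, at 231, 179 and 84.5 CPM. Without the vascular wells these were 23.4, 5.86 and 11.7 CPM, that of Nid1 under the level of 3 counts.

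The stage courses of the 18 genes extend past E15. All 11 genes that rose, 3 of them at 1 locus, had both P4 plates above both E11 plates, against 37.4% of all genes tested and 52.3% of the 2421 genes with both E15 plates above both E13 plates. The 7 that fell divided into 4 with P4 below E11 and 3 with P4 above (Spry4, Cabp1 and Fstl1). P4 was below E11 in 41.1% of all genes and in 50.6% of the 3656 genes with both E15 plates below both E13 plates. The P4 and E11 plates took no part in the contrast, although they entered the estimate of spread, the choice of genes tested and the scaling.

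**Figure D4:**
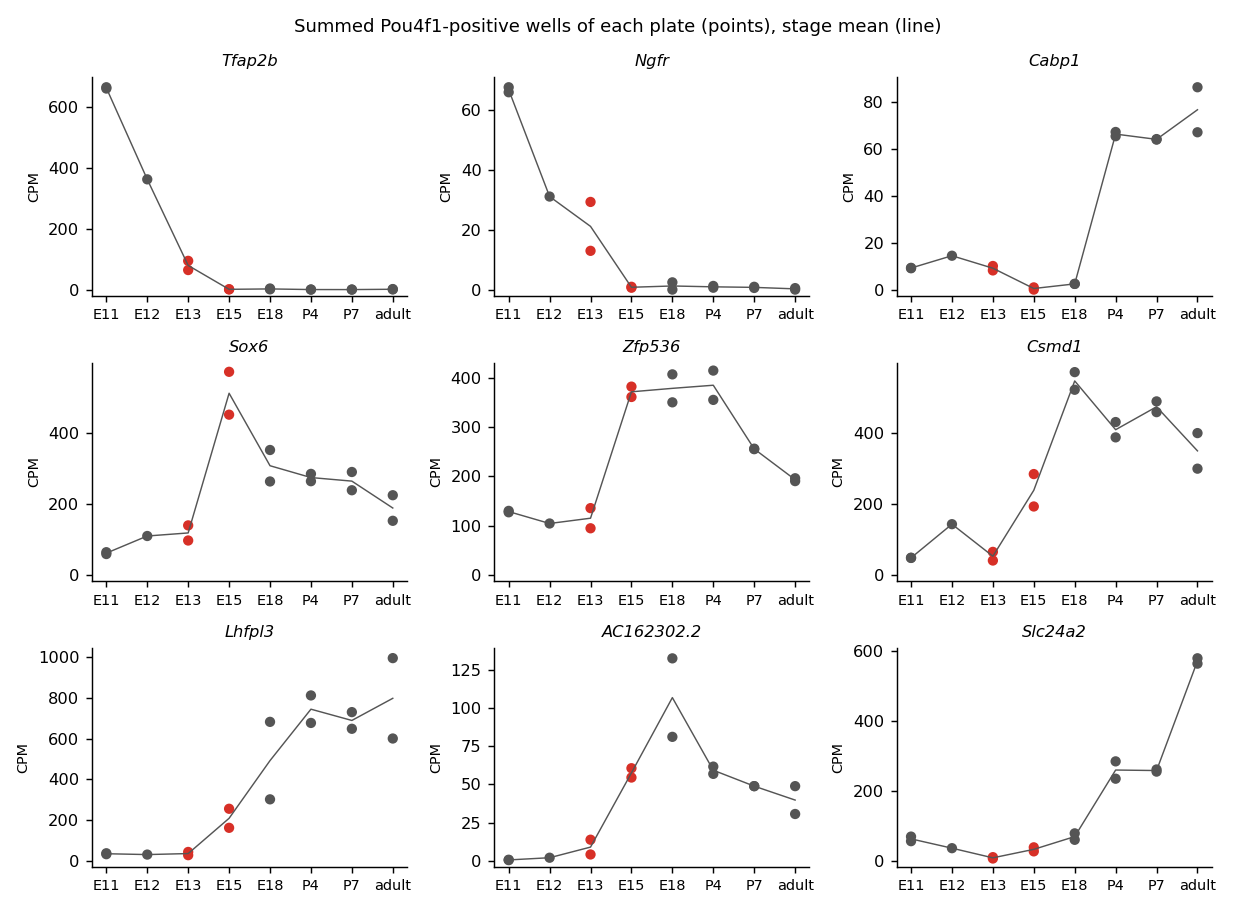
CPM of 9 of the genes in the summed Pou4f1-positive wells of each of 15 plates (points) from E11 to the adult, with the stage mean as a line; E13 and E15 are red and E12 has 1 plate. Tfap2b and Ngfr descend from E11 and are near 0 from E15 on, Sox6 is highest at E15, and Lhfpl3 and Slc24a2 have their highest stage mean in the adult.

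Lists of genes, chosen with earlier results of these data known, were then read by role. Each count below gives members whose 2 E15 plates both lay above or both below the 2 E13 plates, which held for 14.8% and 22.4% of all genes tested. Counts near these shares are no result about a list. The median log2 change over all genes was 0.02. Lists of ribosomal protein, heat shock and neuropeptide genes, among others, are not described. Of 25 oxidative phosphorylation genes 13 were lower and 0 higher, with a median of -0.06. In wells of under 3 vascular genes 7 of them were lower and 1 higher. Among the members counted here the higher stage held over 3 counts on both of its plates, except for Mcm3, Chrm2, Kcnk1, Cldn5 and 5 medial habenula genes. In the lists described here only Tfap2b, kept in a list of midbrain genes, passed the test, so the members are given by their values. Members named are those with the highest level and others chosen after their values were seen.

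Cell cycle genes were lower throughout. All 24 tested were lower on both E15 plates, with a median log2 change of -3.56 (-4.90 without E15 plate 1 and -2.78 without E13 plate 2), and all 24 had an unadjusted p under 0.05, none past adjustment. Their summed level was 511 and 1362 CPM at E13 and 133 and 70.8 CPM at E15. Top2a, the topoisomerase of dividing cells, stood at 58.9 and 138 CPM and then 15 and 0.629 CPM, and Cdk1, the mitotic kinase, at 28 and 130 CPM and then 4.99 and 0.943 CPM. After thinning to 2000 UMIs, 26.9% and 66.2% of member wells held a cell cycle UMI at E13 and 12.9% and 10.1% at E15, against 80.7%, 98.6%, 52.0% and 47.1% unthinned. For these shares thinning left out 5, 2, 5 and 5 member wells, those of under 2000 UMIs. Without the vascular wells the E13 plates drew together, with sums of 476 and 413 CPM against 134 and 70.8 CPM at E15, 20 of 24 genes were lower on both E15 plates (18.4% of all genes in those wells) and the median was -2.46.

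Progenitor genes were lower in part. Of 16 radial progenitor genes 9 were lower and 2 higher, with a median of -1.24. This median was -0.77 without the vascular wells and lay above 0 in 3 settings. It was 0.83 after thinning to 2000 UMIs, with members chosen anew. It was 0.16 in wells with at most 3 cell cycle genes, 21 of them on E13 plate 2. Without wells with a cell cycle count, which left 1 well on E13 plate 2, it was 0.48. Vim, an intermediate filament of radial glia, stood at 577 and 809 CPM and then 422 and 163 CPM, and Id3, an inhibitor of bHLH factors, at 56.8 and 116 CPM and then 7.49 and 1.57 CPM. Sox9 and Wls were the 2 that were higher, and Wls, the carrier of Wnt proteins, stood at 115 and 115 CPM and then 211 and 185 CPM. Of 16 intermediate progenitor genes 7 were lower and 0 higher, with a median of -0.84. That median was -1.85 without E15 plate 1 and -0.22 without E15 plate 2. It was 0.42 without wells with a cell cycle count, which left 1 well on E13 plate 2. Dll3, a Notch ligand relative of newborn neurons, stood at 44.4 and 58.7 CPM and then 20 and 10.7 CPM. Elavl2, the member with the highest level, stood at 330 and 408 CPM and then 521 and 315 CPM, so its stages overlapped.

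Genes of developmental timing were lower where they differed. Of 17 tested 9 were lower on both E15 plates and 0 higher, with a median of -0.39. The median was 0.29 after thinning, with members chosen anew, and -0.05 without E13 plate 1. It was 0.02 without wells with a cell cycle count, which left 1 well on E13 plate 2. Hmga2, a chromatin protein and let-7 target, stood at 27.4 and 11.9 CPM and then 3.74 and 1.89 CPM. Igf2bp1 and Igf2bp3, RNA-binding proteins of fetal tissue and also let-7 targets, stood at 161 and 156 and then 124 and 92.2 CPM, and at 249 and 190 and then 189 and 137 CPM. Of the Lin28 genes, let-7 targets as well, Lin28b overlapped between stages at 170 and 118 and then 120 and 120 CPM, and Lin28a was low throughout, at 5.46 and 0 and then 0.624 and 0 CPM. H19, an imprinted RNA, stood at 44.4 and 306 CPM and then 7.48 and 2.2 CPM, with E13 plate 2 the highest. Nfib and Nfia, nuclear factors of later neurogenesis, overlapped between stages.

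Among the bHLH factors of neurons none passed the test. Neurod1, Neurod2 and Neurod6 were higher on both E15 plates, at 158 and 200 and then 271 and 348 CPM for Neurod1. Nhlh2 was lower, at 901 and 648 and then 544 and 586 CPM. The 12 tested in this list also hold Id2 and Id4, inhibitors of bHLH factors, and Hey1. Of the 12, 3 were higher and 2 lower, and the median was 0.45. The 2 lower were Nhlh2 and Id2, the latter at 39.6 and 38.5 and then 11.2 and 4.09 CPM.

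Of 24 transcription factors of the habenula and dorsal diencephalon 6 were higher and 5 lower, with a median of 0.35. None passed the test, and the count of those lower is near the share of all genes. Zic1, a zinc finger factor of the dorsal neural tube, stood at 1305 and 1301 CPM and then 2076 and 2049 CPM, and Zic2 was higher on both E15 plates too. Lmo3, a LIM-only factor, stood at 202 and 116 CPM and then 400 and 452 CPM, and Myt1l, a repressor of non-neuronal genes, at 123 and 197 and then 283 and 331 CPM. Barhl2, a homeobox factor of the early diencephalon, stood at 48.5 and 48.6 CPM and then 10.6 and 1.26 CPM. Zfhx4, a large zinc finger homeobox factor, stood at 331 and 292 and then 161 and 162 CPM. Lhx9, Ebf1 and Klf7, among the highest members, overlapped between stages.

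Of 17 tested genes of medial habenula neurons 4 were higher and 1 lower with over 3 counts on both plates of the higher stage, against 13.3% and 19.6% of all genes tested. Those higher were Chrna3, Chrnb4, Gng8 and Kctd8. No median is read from this list, since it is the fitted value of Chrna5, a gene of 0 to 1.26 CPM, and Cck was at 0 on all 4 plates. Chrnb3 and Trpc7 had 0 counts at E13 and at most 0.624 and 9.12 CPM at E15, with 3 counts or fewer on E15 plate 1, and are not counted as higher. Nwd2 stood at 608 and 703 CPM and then 498 and 2900 CPM, and Kctd8, a GABA-B receptor subunit, at 187 and 231 and then 252 and 610 CPM. Tac1, the tachykinin precursor, was lower, at 570 and 480 and then 334 and 304 CPM. Chat and Slc18a3, the enzyme and the vesicular transporter of acetylcholine, had 0 counts on both E13 plates and at most 3.14 CPM at E15, and are not counted either. Nwd2 and Kctd8 were highest on E15 plate 2, and the values of Nwd2 overlapped between stages. Of 15 lateral habenula genes 1 was higher and 4 lower, with a median of -0.26. Gap43, a growth cone protein, stood at 1476 and 648 and then 1033 and 710 CPM, and Cacna2d1, a calcium channel subunit, at 618 and 749 and then 408 and 148 CPM.

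Of 25 receptors of axon guidance 7 were higher and 9 lower, with a median of -0.06, and none passed the test. Among those higher were Robo3, which permits midline crossing, at 538 and 573 and then 919 and 1106 CPM, and Nrp2, a semaphorin receptor required for the fasciculus retroflexus, at 606 and 801 and then 1173 and 1350 CPM. Epha7 stood at 443 and 371 and then 863 and 656 CPM. Among those lower was Robo2, a Slit receptor, at 169 and 132 and then 44.3 and 35.2 CPM. Unc5b and Unc5c, members of the family of repulsive netrin receptors, were lower too, Unc5c at 180 and 559 and then 111 and 31.1 CPM. Dcc, the attractive netrin receptor, overlapped, at 6519 and 5084 and then 10456 and 5427 CPM. Of 21 ligands 3 were higher and 6 lower, with a median of -0.20, and the count of those higher is near the share of all genes. Sema3c, a secreted semaphorin, stood at 8.88 and 16.5 CPM and then 130 and 40.6 CPM, and Draxin, a repulsive guidance protein, at 123 and 77 and then 42.4 and 31.8 CPM.

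Adhesion proteins of axons were higher in 5 of 25, or 20% against 14.8% of all genes, and lower in 2, with a median of 0.17. Nrcam stood at 352 and 300 and then 582 and 556 CPM, and Alcam at 142 and 97.3 and then 286 and 737 CPM. Cntnap2, among the highest, differed more between plates than between stages, at 1422 and 334 and then 172 and 1468 CPM.

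Potassium channel genes had a median of 1.00, with 6 of 18 higher and 1 lower. Kcnd2, an A-type channel, stood at 183 and 241 CPM and then 575 and 2062 CPM, Kcnma1, the large-conductance calcium-activated channel, at 426 and 578 and then 730 and 2587 CPM, and Kcnip1, a partner of Kcnd2, at 36.2 and 58.7 and then 82.4 and 352 CPM. In each the second E15 plate was several times the first, and without it the median of the list was 0.05. Sodium and calcium channel genes were higher in 6 of 22 and lower in 3, with a median of 0.37. Cacna1d, an L-type channel, stood at 28 and 18.3 and then 39.9 and 128 CPM.

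Synaptic vesicle and release genes were higher in 6 of 23 and lower in 1, with a median of 0.41. Nrxn3, a presynaptic adhesion protein, stood at 992 and 741 and then 2176 and 2227 CPM. Transmitter receptor genes were higher in 4 of 25, or 16%, which is near the 14.8% of all genes, and lower in 1. Their median was 0.54, and Gria1, an AMPA receptor subunit, stood at 90.9 and 45.9 and then 152 and 727 CPM. Slc17a6, the vesicular glutamate transporter of the habenula, overlapped, at 293 and 290 and then 443 and 272 CPM. The inhibitory genes Gad1 and Gad2 stayed at or under 10.2 CPM on all 4 plates.

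Of 20 cytoskeletal genes, those of growth cones and tubulin, 0 were higher and 3 lower, with a median of 0.07. Tuba1a, the tubulin of young neurons, stood at 14329 and 10741 and then 12510 and 11489 CPM. The neurofilament genes had a median of -1.62 over 5 genes, and 1 of them, Nefm, was lower on both E15 plates, at 165 and 33 and then 21.8 and 32.7 CPM. Without E13 plate 1 that median was 0.53.

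In the Notch and Wnt list 2 of 21 genes were higher and 7 lower. Lef1, a nuclear partner of Wnt signalling, stood at 243 and 161 and then 464 and 279 CPM, and Jag1, a Notch ligand, at 24.6 and 16.5 and then 7.48 and 3.46 CPM. Tcf7l2, the Wnt effector of thalamus and habenula, overlapped between stages.

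Regulators of splicing were higher in 4 of 19 and lower in 0, with a median of 0.30. Celf2, an RNA-binding protein, stood at 1078 and 985 CPM and then 1764 and 2172 CPM.

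**Figure D5:**
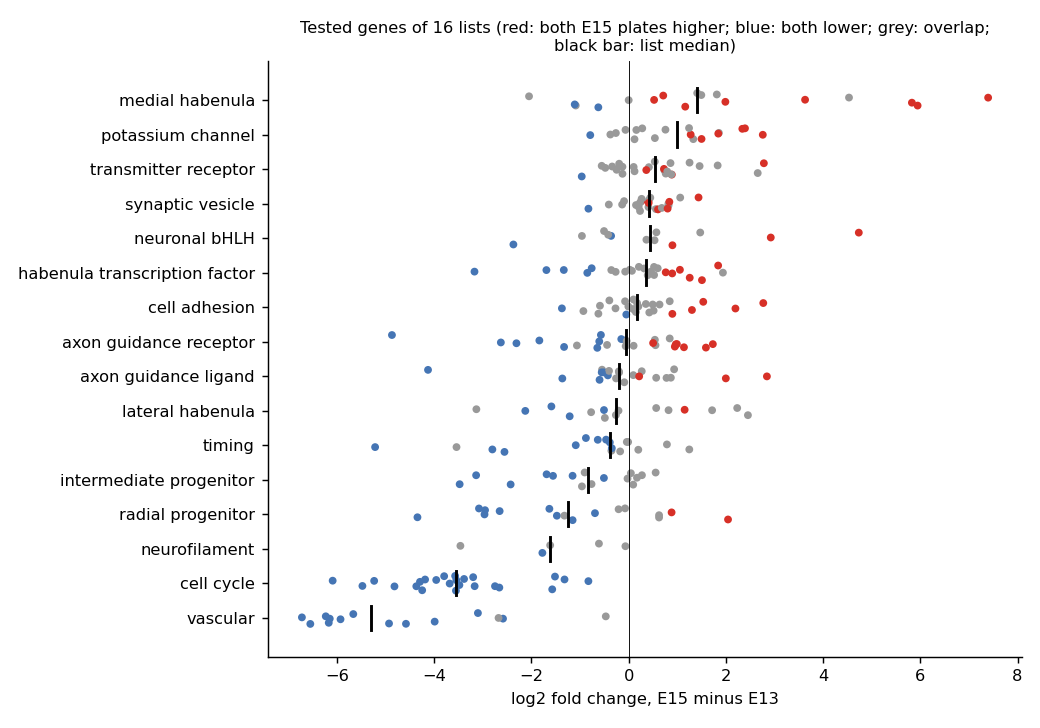
Log2 fold change (E15 minus E13) of each tested gene in 16 lists. Red points had both E15 plates above both E13 plates, blue both below, grey overlapped, and the black bar is the list median, at 1.00 for potassium channel, -3.56 for cell cycle and -5.30 for vascular genes. The bar of medial habenula genes is the fitted value of 1 gene at 0 to 1.26 CPM and is not read.

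Several list medians rested on 1 plate. Leaving out E15 plate 2 took the medians of cell adhesion and transmitter receptor genes to -0.64 and -0.23, and those of synaptic vesicle and of sodium and calcium channel genes to 0.03 and 0.04. Leaving out E13 plate 1 took those of lateral habenula, guidance receptor and guidance ligand genes to 0.63, 0.10 and 0.16, and leaving out E15 plate 1 took that of bHLH factors to -0.07. The median of growth cone and tubulin genes was 0.45 without E13 plate 1 and -0.13 without E13 plate 2. Without E13 plate 2 the medians were 0.17 for habenula transcription factors, 0.11 for synaptic vesicle, 1.42 for thalamus, -0.76 for radial progenitor and -2.86 for vascular genes. Without E13 plate 1 they were 0.97 for synaptic vesicle and 0.52 for splicing genes.

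Markers of other cell types were read in the same sums. Of 14 vascular genes 12 were lower on both E15 plates, with a median of -5.30 (-2.04 in wells of under 3 vascular genes, where 4 were lower). Rgs5, a pericyte gene, stood at 24.6 and 572 CPM and then 9.36 and 0.314 CPM. The summed vascular level in wells of under 3 vascular genes was 50.1 and 146 CPM at E13 and 49 and 18.9 CPM at E15. Since these same genes chose the wells, the smaller change and the lower sums follow from the choice. For ependyma and choroid plexus the sums were 17.1 and 2559 CPM and then 25.6 and 17.9 CPM, and without the vascular wells E13 plate 2 still stood apart, at 15.5 and 2579 and then 25.7 and 17.9 CPM. The sums were, for microglia, 9.56 and 106 and then 5.61 and 16.4 CPM, and for the oligodendrocyte lineage 32.1 and 111 and then 35.6 and 27.4 CPM. Thalamus genes were higher in 3 of 9 and lower in 1, with a median of 0.87 (0.17 without E15 plate 1), and Foxp2 stood at 121 and 243 and then 423 and 481 CPM. Of 4 tested midbrain genes, Tfap2b among them, 3 were lower and 0 higher, with a median of -1.05 (-1.54 without E15 plate 1 and -2.67 without E15 plate 2). The 10 genes of that list summed to 110 and 126 CPM at E13 and 25.6 and 18.9 CPM at E15. Of these sums Tfap2b, the called gene, made up 64.4 and 94.6 and then 1.25 and 0.629 CPM. Without the vascular wells the sums were 111 and 46.9 and then 25.8 and 18.9 CPM, and 1 gene was lower. Pax3, a paired-box factor of the dorsal neural tube, stood at 17.8 and 10.1 and then 6.86 and 1.89 CPM, and Tfap2d at 23.9 and 14.7 and then 14.4 and 14.2 CPM. The immediate early genes Fos and Fosb were highest on E15 plate 2, at 145 and 79 CPM against at most 13.7 and 12.5 CPM on the other plates. The part of these other cells in the results was not tested.

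The change was also compared between Pou4f1-positive and other wells of the same plates. Of 14411 genes, 4 passed edgeR's test of the difference (0.0278%), and 661 (4.59%) had an unadjusted p under 0.05. All 4, C1qc, C1qb, Csf1r and Ly86, are microglial genes. C1qc was highest in the 30 other wells of E15 plate 2, at 406 CPM, against 0, 2.52 and 0 CPM in the other wells of the remaining plates. In Pou4f1-positive wells C1qc stood at 2.05 and 23.9 and then 0 and 1.26 CPM. Without E15 plate 2 the test gave 10 calls and none of these 4. None of them passed without E13 plate 2 or with at least 2 Pou4f1 counts (1 call each), and only C1qc passed on the 4 plates alone. For none of the 18 genes of the stage test was the difference from other wells past the threshold, with Sox6 at 97.7 and 140 and then 453 and 574 CPM in Pou4f1-positive wells and 64.1 and 115 and then 155 and 384 CPM in other wells (difference 0.71 ± 0.52 on the log2 scale, edgeR adjusted p 1). Other wells were fewer and shallower, with 296317 and 792402 counts at E13 and 238924 and 185421 at E15.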

How the data were processed

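Plates of mouse habenula were measured by Cel-seq2, and 4 of them (2 at E13, 2 at E15) gave the comparison, within a fit on 14 plates. Per the submitters' processing notes, reads were handled with Trim Galore 0.4.3107 and STAR 2.5.3a on mm10; no source used here names the counting program, its strand setting or its annotation. The authors' deposit held 1 table each of total, spliced and unspliced expected counts per gene and well, that is UMI numbers corrected for collisions among 4096 possible UMIs and not scaled. Since whole numbers had been foreseen, sums of the deposited expected counts were rounded before the test. The 92 spike-in rows were left out.

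Kept wells had at least 1000 counts, 500 genes and at most 20% mitochondrial counts. No doublet caller was run. Members and gene lists were chosen with earlier results of these data known. Sums of Pou4f1-positive wells were fitted with edgeR 4.0.16 (filterByExpr, TMM, quasi-likelihood, stage as the only term; R 4.3.3), with Benjamini-Hochberg adjustment over all genes and a threshold of 0.05. Other stages entered to estimate the spread, and with it the filter on low counts and the scaling. Each SE printed after ± was the size of the log2 change divided by the square root of the test's F value, so it borrows that spread too. A second fit took 2 sums a plate with a plate term, to test whether the stage change differed between Pou4f1-positive and other wells. Both were tested on simulated data. The simulated plates of a stage shared the same means, with none set apart as E13 plate 2 was, so they do not test the fits under such a plate. Named are genes past the threshold, the lowest p-values without overlap and a mean of at least 20 CPM up to 12 a direction, the 4 list members with the highest level, and up to 8 genes of the second fit. Alternatives covered scaling (DESeq2 1.42.0), filters, well rules, left-out plates, spliced or unspliced counts and a replicate block. Annotation was GENCODE M21 (GRCm38), which held 37938 of the 37994 gene identifiers.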

Additional observations from a re-analysis of the deposited data

Results flagged for a closer look

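In 4 genes the change from E13 to E15 differed between Pou4f1-positive wells and the other kept wells of the same plates, by edgeR's test of the difference. The stage change in Pou4f1-positive wells minus that in other wells was -14.7 ± 2.49 (SE, log2) for Ly86 (edgeR adjusted p 0.0479), -8.76 ± 1.26 for Csf1r (0.00636), -11.2 ± 1.13 for C1qc (0.000246) and -9.35 ± 1.08 for C1qb (0.000936). C1qb and C1qc encode chains of complement C1q, Csf1r the receptor for colony stimulating factor 1, and Ly86 a lymphocyte antigen, all made by microglia. In other wells C1qb stood at 0 and 3.79 CPM at E13 and 0 and 390 CPM at E15, Csf1r at 0 and 3.79 and then 0 and 260 CPM, and Ly86 at 0 and 0 and then 0 and 287 CPM. The sizes are fitted values for genes with several sums at 0 and are no measure of a fold. In Pou4f1-positive wells Csf1r stood at 0.683 and 14.7 and then 0 and 1.89 CPM, and Ly86 at 0 and 8.26 and then 0 and 0.629 CPM, highest on E13 plate 2 in both.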

How the results depend on the processing

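In place of the 18 calls, DESeq2's test gave 330, no filter on low counts 919 and the 4 plates alone 0. At least 2 Pou4f1 counts gave 39, and leaving out wells above 3 times the plate median gave 68. Thinning to 2000 UMIs, with members chosen anew, gave 43, 6 of the 18 among them. Without wells with a cell cycle count, which left 1 well on E13 plate 2, 6 genes passed, 1 of the 18 among them. Leaving out 1 plate in turn gave 5 to 191. Settings chosen after seeing the data gave 1 (8 embryonic plates), 117 (without E18 plate 1, a plate outside the contrast) and 24 (wells of under 3 vascular genes). The cause of these differences was not tested. With the replicate number as a block, 26 genes passed, all 18 among them, and with the E15 numbers crossed 4 passed. The difference between plates 1 and 2 at E13 and that at E15 had a correlation across genes of -0.16. With 1 such difference a stage, this cannot show whether plates of the same number belong together. Nothing states what the numbers pair. Slc24a2 reversed to -0.14 without wells with a cell cycle count; no other of the 18 changed direction in any setting in which it was tested. For the difference between Pou4f1-positive and other wells, 4 calls became 52 with no filter, 1 on the 4 plates alone, 1 with at least 2 Pou4f1 counts, and 1 to 31 with 1 plate left out. At this depth 3 counts stand for 0.943 to 2.75 CPM in a plate's sum, and for 8.79 CPM on E13 plate 2 without its vascular wells, so that levels below could not be told from 0, and 2 plates a stage limit every comparison.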
